A study of Mus musculus with 3 samples.

Results

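*Dlk1* and 7 genes of the Notch pathway (*Notch1*, *Notch2*, *Notch3*, *Jag1*, *Hes1*, *Hey1* and *Heyl*) were followed in the cells of day 5 subcutaneous implants, 8 of the 31053 genes in the count files. The genes were taken by symbol and were selected on earlier values from these same libraries, in which *Dlk1* had a large rise in the stromal cells of palovarotene-treated mice. The levels in stromal cells are therefore given as a description. Each library came from masses of CD-1 female mice of 6 to 8 weeks that were pooled within their group and dissociated with dispase on day 5. In the Matrigel-only group the implant held no recombinant human BMP2 (rhBMP2) and nothing was administered. In the Vehicle group the Matrigel held rhBMP2, the protein that starts ectopic cartilage and bone in this model, and the mice received corn oil with DMSO. In the Palo group the Matrigel also held rhBMP2 and the mice received palovarotene, an agonist of retinoic acid receptor gamma, at 4 mg/kg daily by gavage. Vehicle and Palo thus share the implant and differ in the drug, whereas Matrigel-only differs from Vehicle in both rhBMP2 and the gavage.

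Notch receptors are single-pass membrane proteins that bind Jagged or Delta-like ligands on a neighboring cell. Binding leads to cleavage by ADAM proteases and gamma-secretase, and the freed intracellular part joins RBPJ and Mastermind-like proteins in the nucleus to switch on repressors of the HES and HEY families. In skeletal tissues Notch signaling is known to hold mesenchymal progenitors back from cartilage and bone differentiation. DLK1, also called preadipocyte factor 1, is a membrane protein of the Delta-like family that lacks the domain with which classical ligands engage Notch. It is known as a marker of preadipocytes and of immature mesenchymal cells, and its gene is imprinted, with expression from the paternal copy.

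On mm10, with gene models of GENCODE vM21, *Dlk1* lies on the plus strand at chr12:109452823-109463336, in the imprinted *Dlk1*-*Dio3* domain. *Jag1*, the only classical ligand among the 8 genes, lies on the minus strand at chr2:137081456-137116644. *Hes1* is at chr16:30064384-30067796, *Hey1* at chr3:8663359-8667256 and *Heyl* at chr4:123233556-123249875. *Notch1* is at chr2:26457903-26516663, *Notch2* at chr3:98013527-98150361 and *Notch3* at chr17:32120820-32166852. RefSeq promoter sequence on GRCm38.p6 was at hand for 5 of the 8 genes (*Dlk1*, *Notch1*, *Notch2*, *Notch3* and *Jag1*). The 250 bases before the RefSeq start of *Dlk1* (chr12:109452573-109452822, plus strand) and of *Jag1* (chr2:137116521-137116770, minus strand) are shown because both ligand genes differed by more than 2-fold between the Palo and Vehicle stromal cells. The *Jag1* stretch lies partly inside the GENCODE gene given above, since the RefSeq start used is a different one. The *Notch1* stretch lies wholly and the *Notch2* stretch partly inside the GENCODE gene. They are written 5′ to 3′ with CpG dinucleotides in capitals.
*Dlk1* promoter: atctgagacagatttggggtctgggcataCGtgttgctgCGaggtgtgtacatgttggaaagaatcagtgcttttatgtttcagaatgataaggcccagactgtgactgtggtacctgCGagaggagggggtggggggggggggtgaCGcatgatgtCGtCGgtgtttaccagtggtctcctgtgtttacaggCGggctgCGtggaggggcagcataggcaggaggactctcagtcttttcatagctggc
*Jag1* promoter: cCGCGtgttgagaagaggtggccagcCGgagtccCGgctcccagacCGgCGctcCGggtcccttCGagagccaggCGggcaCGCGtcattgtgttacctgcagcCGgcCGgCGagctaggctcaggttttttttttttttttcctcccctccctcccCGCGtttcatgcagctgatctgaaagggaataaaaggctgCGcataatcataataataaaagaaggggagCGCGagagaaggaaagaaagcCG
The *Dlk1* stretch held 8 CpG and 54.8% G and C, and the *Jag1* stretch 20 CpG and 57.2%, against a median of 6 CpG over 32851 promoters of the same length. The core letters of the RBPJ site (TGGGAA, both strands) matched none of the 5 promoters and 21.6% of all promoters. The retinoid receptor half-site AGGTCA, searched on both strands, also matched none of the 5, against 14.0% of all promoters. The full repeat of that half-site with 5 bases between copies, which overlaps the half-site search, was in none of the 5 and in 0.00913% of all. GC boxes (GGGCGG, both strands) numbered 5 in *Notch1*, 5 in *Notch2* and 4 in *Notch3*, with 0 in *Dlk1* and *Jag1*, and were found in 32.7% of all promoters. These matches describe letters in a short window and say nothing of binding.

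Unique molecular identifiers (UMIs), which count captured RNA molecules, totaled between 44252421 and 46901673 per library. After cells with fewer than 200 or more than 6000 genes, or with more than 5% mitochondrial UMIs, were removed, there remained 8728 cells of Matrigel-only, 5478 of Vehicle and 7297 of Palo. Stromal cells were those in which *Col1a1*, *Col1a2*, *Col3a1*, *Dcn* and *Lum* together made up at least 1% of UMIs. There were 2085 such cells from Matrigel-only, 1373 from Vehicle and 1184 from Palo. Macrophages were cells below that share with *Csf1r* or *C1qa* detected, and they numbered 5812, 3253 and 5661. The stromal label fitted its markers, since all 12 mesenchymal markers (such as *Pdgfra* and *Prrx1*) were at 5 CPM or more (CPM being the usual counts-per-million scale) in the stromal cells of every library. Their summed level was 34655, 26819 and 34270 CPM in the stromal cells and between 179 and 327 CPM in the macrophages. The 12 macrophage markers summed to between 21271 and 26855 CPM in the macrophages. In the stromal cells they summed to 1020, 384 and 851 CPM, and 480, 364 and 329 stromal cells held a UMI of *Csf1r* or *C1qa*. Median depth of the stromal cells was 9082, 17114 and 12955 UMIs, so shares of cells with a UMI were computed after thinning to 3000 UMIs in stromal cells and to 1000 in macrophages. Between 11 and 21 barcodes were shared by each pair of libraries, of which 8 to 17 were among passing cells.

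With 1 library per condition no difference could be tested, none has a replicate check, and library and condition cannot be told apart. Levels in CPM are the UMIs of a gene over all UMIs of the class, with exact Poisson 95% intervals. Shares carry exact binomial intervals and ratios carry conditional binomial intervals. These intervals cover counting error only and treat UMIs as independent, although many UMIs can come from the same cell.

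*Dlk1* was nearly missing from the Vehicle stromal cells and was prominent in both other libraries. Its level was 122.3 CPM (95% interval 117.5 to 127.2) in Matrigel-only, 2.03 CPM (1.5 to 2.70) in Vehicle and 167.5 CPM (161.2 to 174.0) in Palo, from 2452, 48 and 2652 UMIs. Palo was thus 82.3-fold above Vehicle (61.9 to 112), and Vehicle was 60.1-fold below Matrigel-only (45.2 to 81.7). Set against Matrigel-only, the Palo level was 1.37-fold higher (1.30 to 1.45), so the large Palo ratio belongs to the contrast with Vehicle, which both of the large ratios share. After 5 CPM was added to each level, the log2 ratio of Palo over Vehicle was 4.62, in position 1 from the top of the 10311 genes with a mean of at least 5 CPM. The corresponding ratio of Vehicle over Matrigel-only was -4.18, in position 1 from the bottom. These positions describe the choice of the gene and are no support for it.

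**Figure D1:**
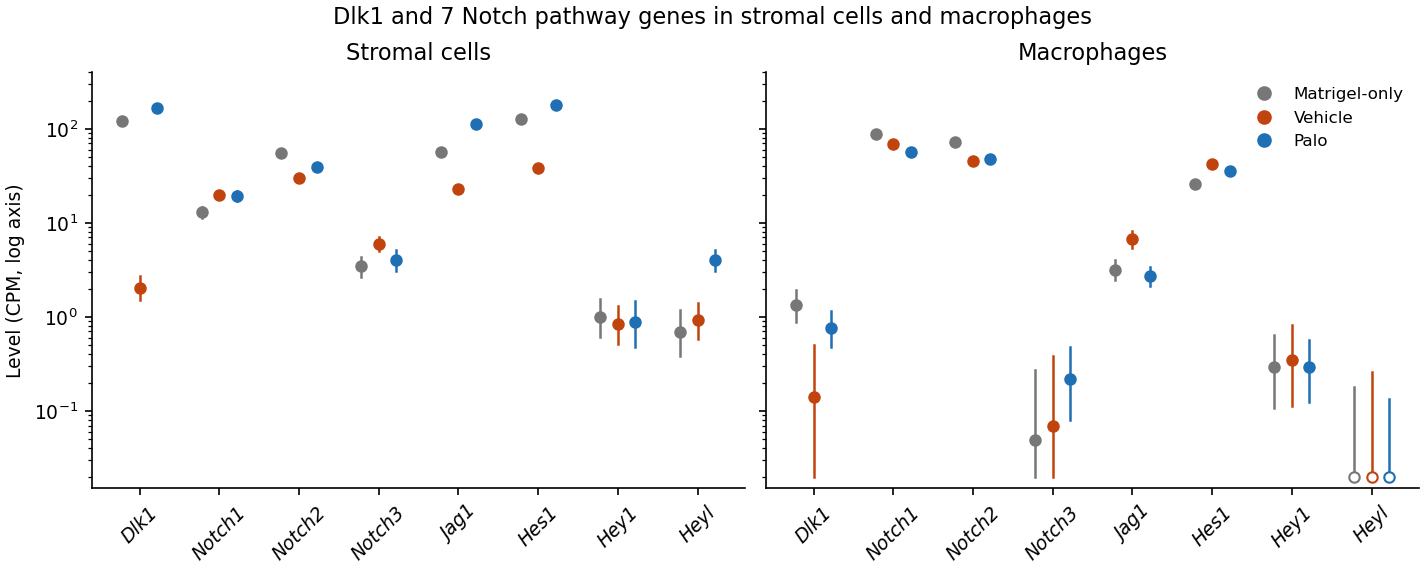
Levels of the 8 genes in stromal cells (left) and macrophages (right), in CPM on a log axis, with 1 point per library and exact Poisson 95% intervals that cover counting error only. The Vehicle point of *Dlk1* sits at 2.03 CPM in stromal cells, far below Matrigel-only (122.3 CPM) and Palo (167.5 CPM), and *Jag1* and *Hes1* have their lowest stromal point in Vehicle as well.

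*Dlk1* transcripts were held by a minority of cells. Before thinning, 17.7% of Matrigel-only, 1.82% of Vehicle and 26.9% of Palo stromal cells had a *Dlk1* UMI. At 3000 UMIs per cell the shares were 11.8% (10.4 to 13.4), 0.602% (0.258 to 1.19) and 16.4% (14.3 to 18.7). Macrophages, thinned to the same depth, had shares of 0.219%, 0.0147% and 0.165%, so the Vehicle stromal share was above this background, and its interval did not overlap that of the Vehicle macrophages (up to 0.215%). At least 10 *Dlk1* UMIs were held by 74 Matrigel-only cells, 1 Vehicle cell and 88 Palo cells, and the highest cell held 58, 12 and 149 UMIs. The top 10% of stromal cells held 92.0% of the *Dlk1* UMIs in Matrigel-only and 84.2% in Palo. The stromal class held 97.3%, 87.3% and 97.5% of each library's *Dlk1* UMIs.

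The levels of *Notch1*, *Notch2* and *Notch3* differed by less than 2-fold between any pair of libraries in the stromal cells as a whole. *Notch1*, the receptor with broad expression, was at 12.9 CPM (11.4 to 14.6) in Matrigel-only, 19.7 CPM (18.0 to 21.6) in Vehicle and 19.4 CPM (17.3 to 21.7) in Palo. Vehicle and Palo did not differ beyond counting error, with a ratio of 0.984 (0.849 to 1.14), and both were above Matrigel-only. *Notch2* was at 54.7 CPM (51.5 to 58.1), 30.3 CPM (28.1 to 32.6) and 39.2 CPM (36.1 to 42.4). The Palo level of *Notch2* was 1.29-fold above Vehicle (1.16 to 1.44) and stayed 1.40-fold below Matrigel-only (1.27 to 1.54). *Notch3*, a receptor known from mural cells of vessels, was at 3.44, 5.93 and 4.04 CPM from 69, 140 and 64 UMIs. Its mean lay under the 5 CPM needed for a call.

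*Jag1* encodes Jagged1, a membrane-bound activating ligand. In stromal cells it was at 56.5 CPM (53.3 to 59.9) in Matrigel-only, 23.0 CPM (21.1 to 25) in Vehicle and 112.2 CPM (107.1 to 117.6) in Palo. Palo was 4.88-fold above Vehicle (4.43 to 5.38) and 1.99-fold above Matrigel-only (1.84 to 2.14), and Vehicle was 2.46-fold below Matrigel-only (2.21 to 2.72). The 3 levels were thus in the order Vehicle, Matrigel-only, Palo with no overlap of their intervals. At 3000 UMIs, 14.3% (12.7 to 15.9), 6.45% (5.18 to 7.93) and 20.2% (17.9 to 22.7) of stromal cells had a *Jag1* UMI.

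*Hes1*, a repressor that Notch activates directly and that other pathways also induce, followed the same order. Its level was 128.4 CPM (123.5 to 133.5) in Matrigel-only, 38.3 CPM (35.8 to 40.9) in Vehicle and 177.2 CPM (170.7 to 183.9) in Palo. Palo was 4.63-fold above Vehicle (4.29 to 5.00) and 1.38-fold above Matrigel-only (1.31 to 1.46), with Vehicle 3.36-fold below Matrigel-only (3.11 to 3.62). At 3000 UMIs the share of stromal cells with a *Hes1* UMI was 28.4%, 9.18% and 34.6%. *Hey1*, another target, was near the limit of detection, at 0.998, 0.848 and 0.884 CPM from 20, 20 and 14 UMIs, and no difference was detectable at this depth. *Heyl*, which is another target of this family, was at 0.698 CPM (0.382 to 1.17), 0.933 CPM (0.584 to 1.41) and 4.04 CPM (3.11 to 5.16) from 14, 22 and 64 UMIs. Its Palo level was 5.79-fold above Matrigel-only (3.21 to 11.2) and 4.33-fold above Vehicle (2.63 to 7.39), but its mean was below the 5 CPM needed for a call.

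A gene was called when its log2 ratio, after 5 CPM was added, was at least 1 in size (2-fold) and its mean over the 3 libraries was at least 5 CPM. In stromal cells 5 of the 8 genes (*Dlk1*, *Notch1*, *Notch2*, *Jag1* and *Hes1*) passed the filter on the mean. For Palo over Vehicle, *Dlk1*, *Jag1* and *Hes1* were called higher, 3 of 5, where 7.75% of the 10311 genes tested were called in either direction. The *Hes1* call was lost, at a log2 ratio of 0.99, when 3 subsets of the stromal cells (*Pi16* or *Dpp4*, *Sox9* and other cells) were given equal weight. For Vehicle over Matrigel-only the same 3 genes were called lower, where 10.4% of all genes were called. For Palo over Matrigel-only 0 of the 5 were called, where 1.14% of all genes were, and *Jag1* came closest with a log2 ratio of 0.93. Since the genes were chosen from these contrasts, nothing is read from the counts of Palo over Vehicle and Vehicle over Matrigel-only, which share the Vehicle library. The third contrast shares a library with each of them. The log2 ratios of *Jag1* and *Hes1* for Palo over Vehicle were both 2.07, in positions 61 and 57 from the top of the 10311 genes. As for *Dlk1*, these positions describe the choice of the genes and are no support for it.

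**Figure D2:**
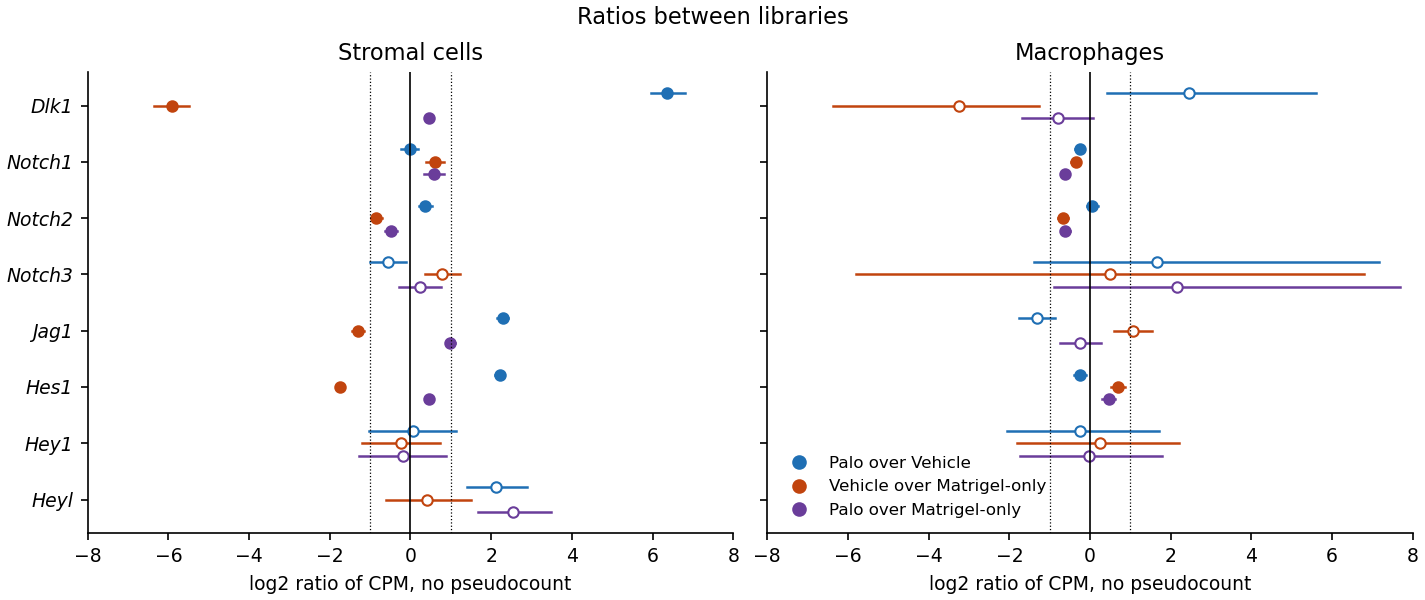
Log2 ratios of CPM with no pseudocount for the 8 genes in stromal cells (left) and macrophages (right), with 1 point per contrast and conditional binomial 95% intervals that cover counting error only. In stromal cells *Dlk1*, *Jag1* and *Hes1* lie to the right for Palo over Vehicle and to the left for Vehicle over Matrigel-only, while *Notch1* and *Notch2* stay within 1 of 0.

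The stromal cells of Vehicle were of a different composition from those of the other libraries, so the levels were also taken within subsets. Cells with at least 2 UMIs of *Acan* and *Col2a1*, the main proteoglycan and collagen of cartilage, were absent among the 2085 Matrigel-only stromal cells but made up 53.1% of those in Vehicle and 0.253% of those in Palo. The next subset, cells with *Pi16* or *Dpp4*, which mark progenitor-like fibroblasts of skin, made up 70.3%, 11.3% and 56.8%. Cells with *Sox9*, a transcription factor of early cartilage, made up 13.0%, 25.1% and 20.4%, and the other stromal cells 16.7%, 10.5% and 22.6%. Each subset left out the cells of those before it. Cells were assigned at their full depth, without thinning, so these shares and the make-up of each subset were not matched for depth. How far the subsets of a library resemble those of another beyond these genes was not tested.

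*Dlk1* was lowest in Vehicle within every subset that could be compared. In *Pi16*/*Dpp4* cells it was at 83.8 CPM in Matrigel-only, 10.6 CPM in Vehicle and 161.4 CPM in Palo, and Palo was 15.3-fold above Vehicle (10.2 to 23.9). In *Sox9* cells it was at 280.9, 0.940 and 162.9 CPM, so here Palo lay below Matrigel-only. In the other stromal cells it was at 141.2, 3.11 and 192.5 CPM. With equal weight given to the *Pi16*/*Dpp4*, *Sox9* and other cells, the *Dlk1* log2 ratio of Palo over Matrigel-only was 0.03 in place of 0.44. The 729 cartilage matrix cells of Vehicle had 0.923 CPM (0.477 to 1.61). The highest of the Vehicle levels was in *Pi16*/*Dpp4* cells, from 24 UMIs.

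*Jag1* and *Hes1* depended more on the subset. In *Pi16*/*Dpp4* cells *Jag1* was at 63.8, 28.6 and 161.8 CPM, a 5.65-fold difference between Palo and Vehicle. In *Sox9* cells it was at 32.5, 28.0 and 46.8 CPM, and in the other stromal cells at 46.9, 50.2 and 42.4 CPM. In those other cells the ratio of Palo over Vehicle was 0.844 (0.647 to 1.10), so the higher *Jag1* of Palo was not present in each subset. *Hes1* was at 131.7, 108.4 and 200.4 CPM in *Pi16*/*Dpp4* cells, at 114.7, 43.2 and 134.9 CPM in *Sox9* cells and at 127.0, 89.0 and 158.9 CPM in the other stromal cells. Its ratio of Palo over Vehicle was 1.85, 3.12 and 1.78 in these subsets, smaller in each than over all stromal cells. The cartilage matrix cells of Vehicle had 15.5 CPM of *Jag1* and 16.1 CPM of *Hes1*.

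Receptor levels by subset did not share a direction. With equal weight given to the *Pi16*/*Dpp4*, *Sox9* and other cells, the *Notch2* log2 ratio of Palo over Vehicle was -0.02 in place of 0.32. The *Notch1* log2 ratio of Palo over Matrigel-only was then -0.01 in place of 0.44. *Notch1* was at 9.54, 12.8 and 23.8 CPM in *Pi16*/*Dpp4* cells, with the highest level in Palo. In *Sox9* cells it was at 25.9, 21.0 and 11.6 CPM, with the lowest level in Palo. *Notch2* was at 63.9, 40.5 and 51.4 CPM in *Pi16*/*Dpp4* cells and at 33.8, 32.6 and 22.4 CPM in *Sox9* cells. In the other stromal cells *Notch1* was at 15.5, 31.6 and 14.8 CPM and *Notch3* at 4.20, 17.1 and 5.75 CPM, the last gene's highest level of any subset. There Vehicle was above Matrigel-only by 2.04-fold for *Notch1* (1.37 to 3.04) and by 4.07-fold for *Notch3* (2.08 to 8.42). For *Notch1* these were 61 UMIs in 35 Vehicle cells and 48 UMIs in 33 Matrigel-only cells. The *Notch3* ratio rested on few cells, with 33 UMIs in 15 Vehicle cells and 13 UMIs in 10 Matrigel-only cells, so no direction is read from it. *Heyl* was at 0.430, 0 and 6.04 CPM in *Pi16*/*Dpp4* cells, from 6, 0 and 55 UMIs. The count of 0 in Vehicle allows up to 1.32 CPM at 3 counts, and the Palo level was 14.0-fold above Matrigel-only (6.05 to 39.9). In *Sox9* cells *Heyl* was at 0.663, 1.25 and 0.895 CPM, and in the other stromal cells at 1.94, 6.73 and 1.82 CPM. Its ratio of Palo over Vehicle in those other cells was 0.270 (0.0841 to 0.761). That ratio came from 13 UMIs in 5 Vehicle cells and 6 UMIs in 2 Palo cells. The interval treats UMIs as independent, so no direction is read from so few cells. The higher *Heyl* of Palo was seen in the *Pi16*/*Dpp4* cells, with 55 UMIs in 29 Palo cells.

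**Figure D3:**
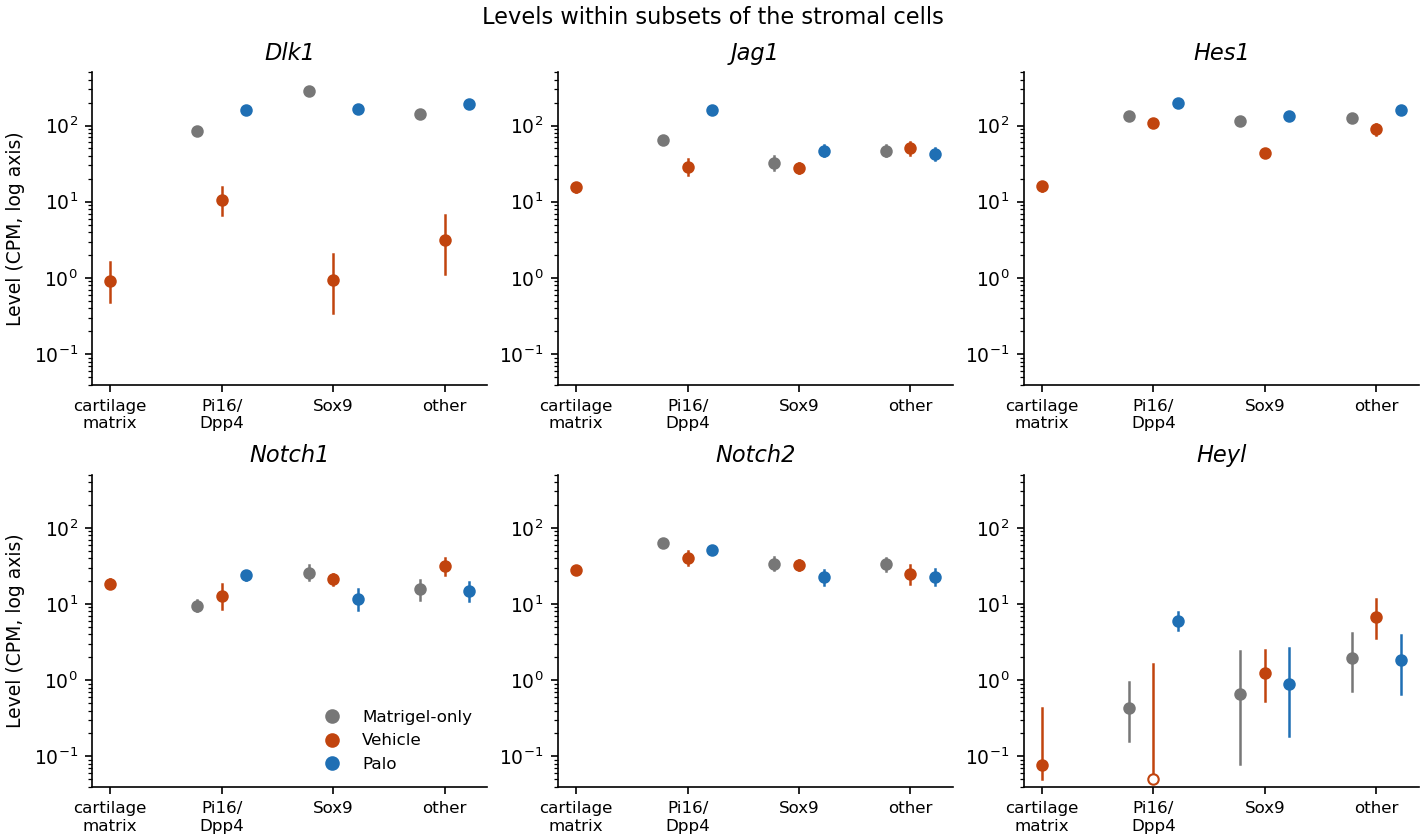
Levels of the genes within subsets of the stromal cells, in CPM on a log axis, with 1 point per library and exact Poisson 95% intervals that cover counting error only. *Dlk1* has its lowest point in Vehicle in the *Pi16*/*Dpp4*, *Sox9* and other subsets, whereas the *Jag1* points of the 3 libraries lie close together in the other stromal cells (42.4 to 50.2 CPM).

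The cartilage list moved in the opposite direction to *Dlk1*, *Jag1* and *Hes1* in the contrasts with Vehicle. Of 14 cartilage genes tested in the stromal cells, 14 were called lower in Palo than in Vehicle and 14 higher in Vehicle than in Matrigel-only, where 3.28% and 3.35% of all genes were called in those directions. For Palo over Matrigel-only 1 of the 14 (*Col11a1*) was called, where 1.14% of all genes were. When the cartilage matrix cells were left out, the log2 ratio of Palo over Vehicle was 4.37 for *Dlk1*, 1.66 for *Jag1* and 1.37 for *Hes1*. For Vehicle over Matrigel-only, without these cells, only *Dlk1* of the 8 genes was still called lower, and the log2 ratios of *Jag1* and *Hes1* were -0.73 and -0.92.

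*Meg3*, a maternally expressed long noncoding RNA, begins 77.7 kb beyond the end of *Dlk1* on chromosome 12 and marks the same imprinted domain. It was also lowest in the Vehicle stromal cells, at 1896 CPM in Matrigel-only, 352 CPM in Vehicle and 1703 CPM in Palo. *Mirg*, a host transcript of the domain's miRNAs that lies 266.4 kb from *Dlk1*, was at 55.3, 11.0 and 43.5 CPM. *Rtl1*, a retrotransposon-derived gene of the paternal copy, was at 1.60, 0.212 and 2.27 CPM, and *Dio3*, a thyroid hormone deiodinase, at 4.19, 1.65 and 4.99 CPM. All 5 measured genes of the domain were thus lowest in Vehicle, and the share of all genes lowest in Vehicle was not counted. The 3 that were tested (*Dlk1*, *Meg3* and *Mirg*) were called lower in Vehicle than in either other library. Of all genes, 4.47% were called lower in Vehicle than in Palo and 7.09% lower than in Matrigel-only. *Dlk1* itself was chosen from these contrasts. Within the *Pi16*/*Dpp4* and *Sox9* subsets the difference in *Meg3* was smaller, at 1952, 959 and 1690 CPM in *Pi16*/*Dpp4* cells and 1611, 608 and 1668 CPM in *Sox9* cells. *Mirg* was at 55.5, 33.5 and 46.1 CPM in *Pi16*/*Dpp4* cells and at 45.1, 19.1 and 37.0 CPM in *Sox9* cells. Within *Pi16*/*Dpp4* cells Palo over Vehicle was 1.76-fold for *Meg3* and 1.38-fold for *Mirg*, both short of 2-fold. Vehicle was below Matrigel-only there by 2.04-fold for *Meg3* (1.95 to 2.13) and by 1.66-fold for *Mirg*. In *Sox9* cells the *Meg3* ratios were 2.75-fold and 2.65-fold and the *Mirg* ratios 1.94-fold and 2.36-fold, in the same order of contrasts. In the other stromal cells they were 3.35-fold and 3.58-fold for *Meg3* and 2.81-fold and 4.16-fold for *Mirg*. The cartilage matrix cells of Vehicle had 93.2 CPM of *Meg3*.

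**Figure D4:**
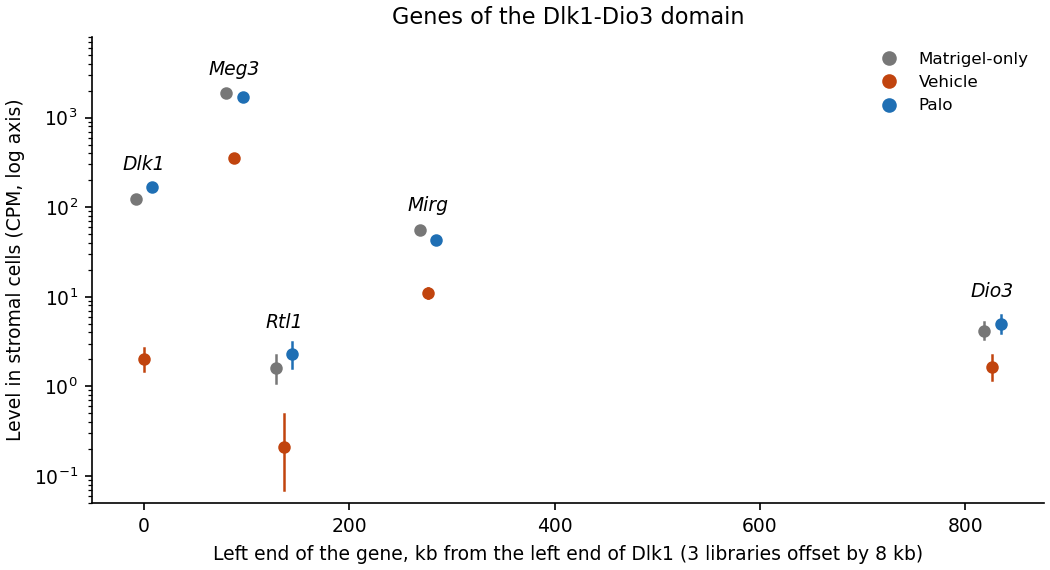
Stromal level of the genes of the *Dlk1*-*Dio3* domain in CPM (log axis) against the distance of each gene's left end from that of *Dlk1* in kb, with the 3 libraries drawn side by side and exact Poisson 95% intervals that cover counting error only. The Vehicle point is the lowest of the 3 at each gene, from *Dlk1* (2.03 CPM) to *Dio3* (1.65 CPM).

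Imprinted genes outside the domain were called in both directions. Of 13 tested, 2 were called higher in Palo than in Vehicle (*Cdkn1c*, an inhibitor of the cell cycle, at 54.5, 12.1 and 84.6 CPM, and *Igf2r*, the receptor that clears IGF2, at 151, 58.5 and 131 CPM). *Mest*, a paternally expressed gene of mesoderm, went the other way at 13.5, 129 and 10.5 CPM, so that 3 of 13 were called where 7.75% of all genes were. For Vehicle over Matrigel-only 2 were called higher and 6 lower, where 10.4% of all genes were called, and for Palo over Matrigel-only 0 were called, where 1.14% were. The median log2 ratio of the 13 genes was 0.48, -0.49 and -0.19 for Palo over Vehicle, Vehicle over Matrigel-only and Palo over Matrigel-only. Over all genes tested it was 0.01, -0.04 and -0.03. The list included *Dcn*, a gene of the stromal gate. Among 7 adipogenesis genes tested, 1 was called higher and 1 lower for Palo over Vehicle, where 7.75% of all genes were called. These were *Lpl*, a lipase, at 494, 66.4 and 223 CPM, and *Fabp4*, a fatty acid binding protein, at 57.9, 13.4 and 1.96 CPM. For Palo over Matrigel-only both were called lower (1.14% of all genes called), and for Vehicle over Matrigel-only 3 genes of the list were called lower (10.4% of all genes called).

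Of 7 retinoid-induced genes tested, 1 was called higher (*Rarres2*, the gene of the chemoattractant chemerin) and 2 lower (*Cyp26b1*, which degrades retinoic acid, and *Rarres1*) for Palo over Vehicle, where 7.75% of all genes were called. *Rarres2* was at 604, 137 and 429 CPM and *Cyp26b1* at 46.5, 94.0 and 38.5 CPM. For Vehicle over Matrigel-only 1 of the 7 was called higher and 1 lower, where 10.4% of all genes were called. For Palo over Matrigel-only 0 of the 7 were called, where 1.14% of all genes were.

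In the wider pathway few genes were called, and in the contrasts with Vehicle their share was near that of all genes. Genes short of 2-fold could still differ beyond counting error. For *Notch2*, Vehicle was 1.81-fold below Matrigel-only (1.64 to 1.99). Over 10 lists with 67 measured genes (ligands, receptors, glycosylation, ligand endocytosis, cleavage, trafficking, the nuclear complex, corepressors and targets), 46 were tested in stromal cells. For Palo over Vehicle 4 were called higher and 0 lower, or 8.70% of those tested, beside 7.75% of all genes. The fourth besides *Dlk1*, *Jag1* and *Hes1* was *Nov*, which encodes the secreted matrix-associated protein CCN3 and is listed among non-canonical ligands, at 549 CPM in Matrigel-only, 68.7 CPM in Vehicle and 864 CPM in Palo. For Vehicle over Matrigel-only 5 were called lower (10.9%, beside 10.4% of all genes). They were the same 4 and *Dtx4*, a ubiquitin ligase of the Deltex family, at 15.2, 4.28 and 12 CPM. For Palo over Matrigel-only 0 were called, where 1.14% of all genes were. The median log2 ratio over the 46 genes was 0.11, -0.18 and -0.08 for the 3 contrasts, beside 0.01, -0.04 and -0.03 over all genes tested. The called genes include *Dlk1*, *Jag1* and *Hes1*, which were chosen from these contrasts. Without the 8 genes 41 were tested, of which 1 (*Nov*, 2.44%) was called for Palo over Vehicle and 2 (*Nov* and *Dtx4*, 4.88%) for Vehicle over Matrigel-only, beside 7.75% and 10.4% of all genes.

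Of the other pathway components, 0 of 9 tested cleavage genes and 0 of 8 tested genes of the nuclear complex were called in any of the 3 contrasts. Of all genes tested, 7.75%, 10.4% and 1.14% were called, so counts of 0 in lists this short say little. *Rbpj*, the DNA-binding partner of cleaved Notch, was at 153, 82.1 and 98.2 CPM. *Adam10* and *Adam17*, the proteases of the first cut, were at 70.9, 44.6 and 64.4 CPM and at 88.3, 46.5 and 66.2 CPM. Both were lowest in Vehicle, short of 2-fold. The other classical ligands were scarcely detected in stromal cells, with *Jag2* at 0.316 CPM or less, *Dll1* at 0.636 CPM or less and *Dll4* at 0 in every library. *Dlk2*, the paralog of *Dlk1*, was at 0.399, 6.23 and 1.26 CPM, highest in Vehicle, where *Dlk1* was lowest. *Notch4*, a receptor known from endothelium, was at 1.70, 4.24 and 2.59 CPM.

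In macrophages *Dlk1* was close to absent, at 1.33, 0.139 and 0.765 CPM from 27, 2 and 21 UMIs. Vehicle was again the lowest, and how many of these few UMIs came from the macrophages themselves was not tested. *Notch1* was at 88.0 CPM (84.0 to 92.2) in Matrigel-only, 68.7 CPM (64.5 to 73.1) in Vehicle and 57.4 CPM (54.6 to 60.3) in Palo, more than in the stromal cells of each library. *Notch2* was at 72.7 CPM (69.0 to 76.5), 45.7 CPM (42.3 to 49.3) and 47.6 CPM (45 to 50.2). Its Vehicle and Palo levels did not differ beyond counting error when scaled by UMI totals. Both receptors' ratios of Palo over Vehicle depended on the scaling. With 5 CPM added, the log2 ratio of *Notch1* was -0.24 with UMI totals and -0.06 with an alternative scaling (TMM). For *Notch2* it was 0.05 and 0.23. *Notch3* was detected with 1, 1 and 6 UMIs. *Heyl* had 0 UMIs in all 3 libraries, which allows levels of up to 0.147, 0.209 and 0.109 CPM at 3 counts. *Hey1* was at 0.295, 0.348 and 0.292 CPM.

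The order of *Jag1* and *Hes1* levels over the libraries was another in macrophages than in stromal cells. *Jag1* was at 3.19 CPM (2.46 to 4.07) in Matrigel-only, 6.69 CPM (5.42 to 8.17) in Vehicle and 2.70 CPM (2.12 to 3.39) in Palo, and *Hes1* at 25.9 CPM (23.8 to 28.2), 42.1 CPM (38.9 to 45.6) and 35.7 CPM (33.5 to 38.0). In CPM both genes were highest in the Vehicle macrophages and lowest in the Vehicle stromal cells, but for *Hes1* the order of Vehicle and Palo depended on the macrophage rule. Its log2 ratio of Palo over Vehicle was -0.21 and turned to 0.18 under a stricter use of *Csf1r* and *C1qa*. For that contrast the median of all genes tested in macrophages was -0.14. Several lists of markers of other cells were also highest in the Vehicle macrophages, with summed levels of 17.3, 66.5 and 8.24 CPM for 10 T and NK markers and 59.7, 152 and 67.6 CPM for 7 dendritic markers. *Cd209a* alone made up 51.8, 131 and 58.3 CPM of the dendritic sums. The adipocyte, keratinocyte and Schwann lists were instead highest in the Matrigel-only macrophages, at 35.1, 8.25 and 6.92 CPM. The 6 granulocyte markers summed to 70.2, 126 and 39.3 CPM and the 6 basophil and mast cell markers to 0.884, 28.4 and 1.93 CPM. *Cpa3* was at 0 in Vehicle, and *Mcpt8*, *Fcer1a* and *Ms4a2* were at 0 in both other libraries. The part of these cells in the *Jag1* and *Hes1* levels was not tested. At 1000 UMIs, 0.328%, 0.853% and 0.298% of macrophages had a *Jag1* UMI, and 2.42%, 4.47% and 3.39% a *Hes1* UMI. Among the deeper macrophages thinned to 3000 UMIs, the *Hes1* shares were 5.91%, 6.97% and 8.21%, with Palo highest. The filter on the mean was passed by 3 of the 8 genes (*Notch1*, *Notch2* and *Hes1*). For Palo over Vehicle 0 were called, where 3.88% of 9551 genes were. For Vehicle over Matrigel-only 0 were called, where 3.66% were, and for Palo over Matrigel-only 0 were called, where 1.05% were. Of the 48 genes of the Notch lists tested in macrophages, 0 were called in each contrast. *Jag2* was more visible in macrophages than in stromal cells, at 6.29, 10.5 and 7.36 CPM.

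The cells that entered neither class were sorted by the marker list with the most UMIs. Among sets of at least 50 such cells, *Notch1* had its highest level in the 88 Vehicle cells led by basophil and mast cell markers, at 248 CPM, and was between 143 and 159 CPM in the cells led by T and NK markers. *Notch2* was at 180, 96.1 and 151 CPM in cells led by dendritic markers. *Dlk1* was found in 3 of 34 mesenchymal-led cells of Matrigel-only (38 UMIs, 358 CPM) and in 1 of 25 such cells of Palo (43 UMIs, 775 CPM). It had 0 UMIs in 49 such cells of Vehicle, which allows up to 12.2 CPM at 3 counts. These small sets held cells whose share of the 5 gate genes was under 1%. Just below the gate, at 0.5% to 1% of UMIs, *Dlk1* was at 205 CPM (56 cells), 0 CPM (52 cells) and 808 CPM (10 cells). Just above it, at 1% to 2%, it was at 295 CPM (38 cells), 2.38 CPM (99 cells) and 10.7 CPM (8 cells). The Palo value below the gate came from 2 cells with *Dlk1*, and the Palo value above it from 1 UMI, with an interval (0.271 to 59.6) that contains the Vehicle level.

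Markers of other cells in the stromal class differed between libraries. The 12 endothelial markers summed to 63.3, 13.8 and 43.0 CPM, with *Robo4* at 0 in each library, *Emcn* at 0 in Matrigel-only and Palo, *Cldn5* at 0 in Vehicle and *Tie1* at 0 in Palo. The 10 mural markers summed to 567, 1225 and 588 CPM, of which *Ndufa4l2* alone made up 504, 1092 and 533 CPM, and *Higd1b*, a defining pericyte marker, was at 0 in every library. The 6 granulocyte markers summed to 28.7, 18.9 and 96.6 CPM, led by *Mmp9* at 26.6, 8.69 and 94.9 CPM. The 6 adipocyte markers summed to 19.8, 1.70 and 0.442 CPM. The 10 T and NK markers summed to 2.04, 15.3 and 4.17 CPM. The 7 Schwann cell markers summed to 10.7, 24.2 and 5.37 CPM, with *Sox10* and *Foxd3* at 0 in every library, and the 6 keratinocyte markers to 30.9, 17.8 and 30.5 CPM, with *Krt5* at 0 in every library. The macrophage markers, given above, were lowest in Vehicle, as were *Dlk1*, *Jag1* and *Hes1*. The part of these cells in the results was not tested. In the macrophages of the same libraries *Dlk1* was at 1.33 CPM or less.

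The genes whose pattern was most like that of *Dlk1* were sought over 24 sets of at least 50 cells (stromal subsets, macrophages and the remaining cells of each library), among 10711 genes of at least 20 CPM in 1 set. By Pearson's r of log2 (CPM + 5), *Crabp1*, a cytoplasmic retinoic acid binding protein, came first (r = 0.93), followed by *F2rl1*, *Thbs4*, *Tril* and *Col6a6* (r = 0.89 to 0.91). *Crabp1* was at 16.6, 0.212 and 16.2 CPM in the stromal cells. *Mirg* was at r = 0.83 and *Meg3* at r = 0.77, *Jag1* at 0.69 and *Hes1* at 0.67, while *Notch1* (-0.43) and *Notch2* (-0.33) had negative values. For *Hes1* the closest genes were *Emp1*, *Fam20a*, *Axl*, *Meis3* and *Wls* (r = 0.85 to 0.87), and *Notch2* was at -0.68. The sets share libraries and depth, so these values are a description. They also mix cell classes, and do not single out differences between libraries within the stromal cells. In macrophages *Notch1* and *Notch2* were higher, and *Dlk1* lower, than in the stromal cells of each library.

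Within Palo, stromal cells thinned to 3000 UMIs were split into 184 with and 947 without a *Dlk1* UMI. *Jag1* was lower in the cells with *Dlk1*, at 52.5 against 102 CPM, a log2 ratio of -0.96 (-1.56 to -0.41). *Hes1* was at 167 against 185 CPM, and its log2 ratio of -0.15 (-0.49 to 0.17) did not differ from 0 beyond counting error. *Notch1* and *Notch2* were at 12.7 against 18.3 CPM and at 29.0 against 45.4 CPM, and both intervals included 0. *Meg3* was higher in the cells with *Dlk1*, at 2737 against 1600 CPM. In Matrigel-only, with 226 cells against 1657, *Jag1* was at 41.3 against 58.3 CPM, with an interval of the log2 ratio from -1.11 to 0.06, and *Meg3* was at 2760 against 1896 CPM. *Notch1* was at 26.5 against 11.7 CPM there, the opposite order from Palo. Median depth before thinning was 13025 UMIs in the cells with *Dlk1* and 13309 in those without in Palo.

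The genes with the largest ratios in the Palo cells with *Dlk1*, among genes of at least 50 CPM on either side, were *Capn6*, *Igfbp3*, *Cdkn1c*, *Fmo1* and *Grem1*, an inhibitor of BMPs (139 against 55.3 CPM). Each was also higher in the Matrigel-only cells with *Dlk1*. The lowest were *Saa3*, *Pi16* (136 against 543 CPM), *C3*, *Aqp1* and *Cxcl14*. Of these, *Cxcl14* had the opposite order in Matrigel-only (329 against 208 CPM). *Aqp1* was at 54.6 against 74.8 CPM there, and its log2 ratio of -0.46 (-0.98 to 0.03) did not differ from 0 beyond counting error. *Pi16*/*Dpp4* cells were 46.2% of the Palo cells with *Dlk1* and 59.0% of those without, and 49.1% and 74.2% in Matrigel-only, whereas *Sox9* cells were 25.5% and 20.4% in Palo and 31.9% and 11.4% in Matrigel-only.

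**Figure D5:**
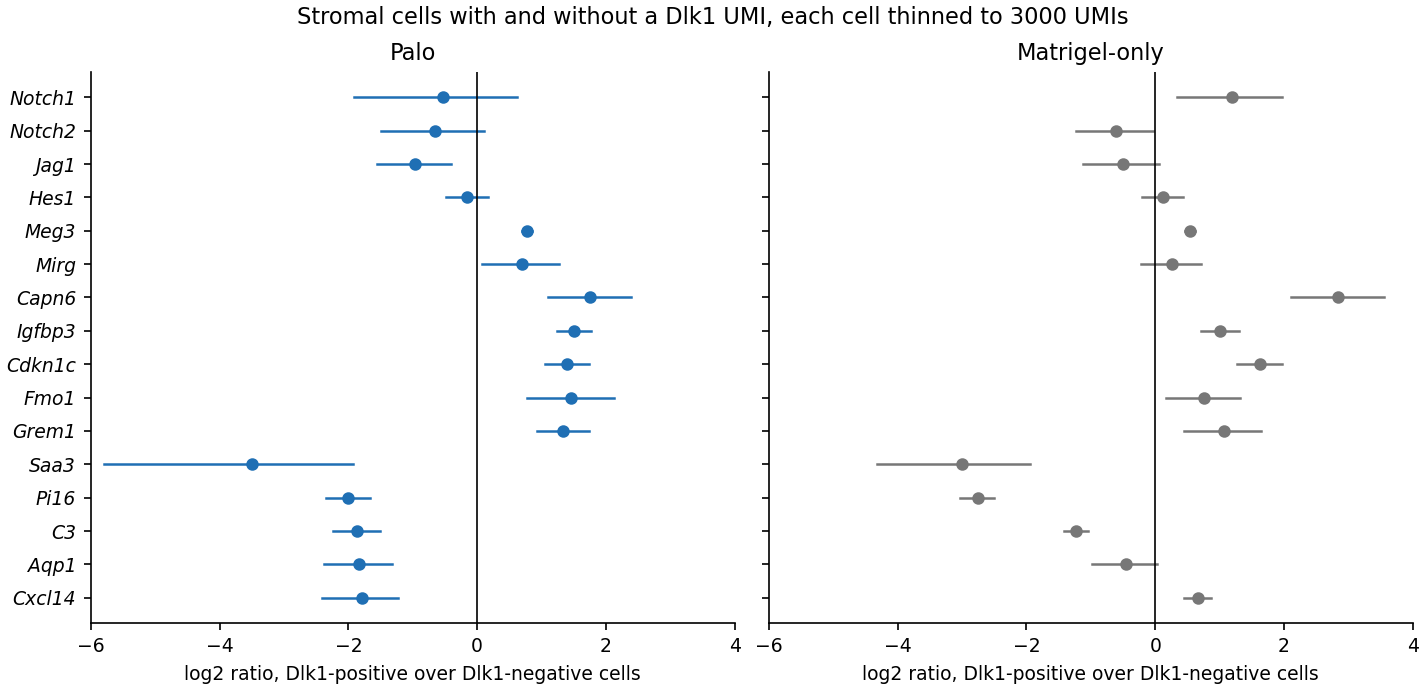
Log2 ratios of CPM between stromal cells with and without a *Dlk1* UMI, in Palo and in Matrigel-only, after each cell was thinned to 3000 UMIs, with conditional binomial 95% intervals that cover counting error only. *Jag1* lies below 0 in Palo (-0.96), *Hes1* lies near 0 in both libraries, and *Meg3* lies above 0 in both.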

How the data were processed

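Cells of dissociated implants were captured with 10x Genomics droplets, 1 library per condition. The authors aligned reads to mm10 with Cell Ranger 3.0.2, per the labels, and deposited raw UMI counts, a gene-by-barcode matrix for each library. Seurat 3 is named in the submitters' processing notes and was not used here. The 35 gene symbols that occur more than once did not include the genes reported. Counts were summed per class and library and scaled to CPM, and a pseudocount of 5 CPM was added for calls. Shares were thinned by the hypergeometric formula. The scripts were tested on simulated data. Groups came from the labels, and the numbers of masses per library were not used. Scripts ran under Python 3.11.15 (pandas 2.3.3, scipy 1.17.1, matplotlib 3.10.9, numpy 2.4.6). edgeR 4.0.16 (TMM) and DESeq2 1.42.0 (size factors) in R 4.3.3 supplied alternative scalings only, and Scrublet ran through scanpy 1.11.5. Doublets were kept in the levels reported.

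The 8 genes and all gene lists were chosen with earlier results of these data known. Named besides the 8 genes were list members past 2-fold, the 5 genes most like *Dlk1* and *Hes1* in pattern and, on each side, the 5 of largest ratio between cells with and without *Dlk1*. Other list members were named after their values were seen. Promoter sequences came from RefSeq. Intervals are at 95% and cover counting error only, since depth limits precision within a library and 1 library per condition gives no spread between animals.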

Additional observations from a re-analysis of the deposited data

Results flagged for a closer look

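*Jag1* and *Hes1* went in opposite directions in the stromal cells as a whole and in macrophages under the same contrast, with 1 library on each side. These differences were not tested. For *Jag1*, Palo over Vehicle was 2.07 in stromal cells and -0.60 in macrophages on the log2 scale with 5 CPM added, a difference of 2.67. Vehicle over Matrigel-only was -1.14 and 0.51 for *Jag1*, a difference of -1.65. The mean of *Jag1* in macrophages was 4.19 CPM, below the 5 CPM needed for a call. The stromal direction of *Jag1* was not shared by each subset. In the other stromal cells its log2 ratio of Palo over Vehicle was -0.22, with counting error that included 0. With equal weight given to the *Pi16*/*Dpp4*, *Sox9* and other cells, its stromal value for Vehicle over Matrigel-only was -0.38. For *Hes1*, Palo over Vehicle was 2.07 and -0.21, a difference of 2.29. Under a stricter use of *Csf1r* and *C1qa* the macrophage value turned to 0.18, the direction of the stromal cells. The median of all genes tested in macrophages for Palo over Vehicle was -0.14, so the *Hes1* value of -0.21 lay near it. Vehicle over Matrigel-only was -1.62 and 0.61 for *Hes1*, a difference of -2.23. The 2 contrasts share the Vehicle library.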

How the results depend on the processing

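Of 17 alternatives, 2 were chosen after the data were seen, the omission of barcodes in more than 1 library and the equal weighting of the *Pi16*/*Dpp4*, *Sox9* and other stromal cells. The counts of genes called in the 6 comparisons stayed within 1.5 times of the reported count in 92 of 96 repeats. The reported count was 0 for Palo over Matrigel-only in stromal cells and for each contrast in macrophages, so no call could be lost there. A drop from 3 genes to 2 was within the limit, so the 92 repeats do not measure how stable each call was. Over 45 single-gene ratios, 629 repeats lay inside the counting interval of the reported ratio and 94 outside it. Changing the fold threshold or the filter on the mean cannot move a ratio. Vehicle over Matrigel-only in stromal cells gave 1 gene (*Dlk1*) in place of 3 without the cartilage matrix cells, and again 1 (*Dlk1*) with equal weights, where *Jag1* was at -0.38 and *Hes1* at -0.60. At a threshold of 1.5-fold, Palo over Matrigel-only in stromal cells gave 1 (*Jag1*) and Vehicle over Matrigel-only in macrophages gave 2 (*Notch2* and *Hes1*). With equal weights *Hes1* was at 0.99 for Palo over Vehicle and was no longer called. *Dlk1* for Palo over Vehicle ranged from 4.17 to 5.80, the upper end with a pseudocount of 1 CPM. In macrophages the median of all genes for Palo over Vehicle was -0.14 with UMI totals and 0.02 with TMM, and *Hes1* turned from -0.21 to 0.18 under a stricter use of *Csf1r* and *C1qa*. No paired analysis was possible because each condition had 1 library. Leaving out a replicate was likewise not possible.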
